A study of Glycine max with 24 samples.

Results

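Leaves of the soybean accession CD (Chundou), labelled as tolerant of low phosphorus, were compared with leaves of the accession YH (Yunhefengwodou), labelled as sensitive to low phosphorus, after both had been supplied with sufficient phosphorus. The 3 CD and 3 YH leaf arrays from normal P were set against each other, 6 of the 24 arrays of the series, and all 75990 probe sets of the Affymetrix soybean gene array were kept. No allele, transgene or agent separated the accessions beyond their own genetic background. Seedlings of every group were germinated for some days, moved to hydroponic boxes with half-strength Hoagland solution and sampled after 10 days. Normal P was 0.5 mmol/L and low P, used here only for the side comparison, was 0.005 mmol/L. The labels call the 3 arrays of a group replicates, and the study's methods describe them as biological, but how plants were divided among them is not given in the sources used here, nor is the hour of harvest. Each accession was 1 line, so what is reported for CD and YH holds for these lines. The paper reports single-base differences between the genomes of CD and YH. Whether any lie under probes of the array and alter a signal was not tested.

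With phosphorus sufficient, this comparison asks how the leaves of both accessions differed apart from any shortage of it. Leaves of legumes run a circadian clock in which LHY/CCA1-type factors peak in the morning and hold down evening genes such as GIGANTEA and TOC1, and the same evening genes feed into flowering through CONSTANS-like factors and the florigen FT. Leaves also hold iron as ferritin in plastids, fix carbon with Rubisco and its activase, store starch by day and export sugar, and young leaves still divide and expand.

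Values are log2 intensities of a probe set on 1 array, differences are CD minus YH on the log2 scale with the standard error (SE) of the fit, and a probe set was called at a Benjamini-Hochberg adjusted p under 0.05 with at least a 2-fold difference (limma, 8 group means fitted to 24 arrays). In CD leaves 4181 probe sets were called higher than in YH leaves (5.5% of those tested) and 2069 lower (2.72%), so 8.22% were called in all. Of the higher ones, 4002 had all 3 CD arrays above all 3 YH arrays, and 1924 of the lower ones had all 3 CD arrays below. Over all probe sets, 15.5% stood above without overlap and 15.6% below. The median difference over all probe sets was -0.06. The median called difference was 1.39 among higher and -1.46 among lower probe sets, and 728 higher and 504 lower ones differed by at least 4-fold. A gene symbol was paired with 32405 probe sets, of which 2975 were called higher (9.18%) and 1385 lower (4.27%). These shares are the background against which each gene list below is read.

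**Figure D1:**
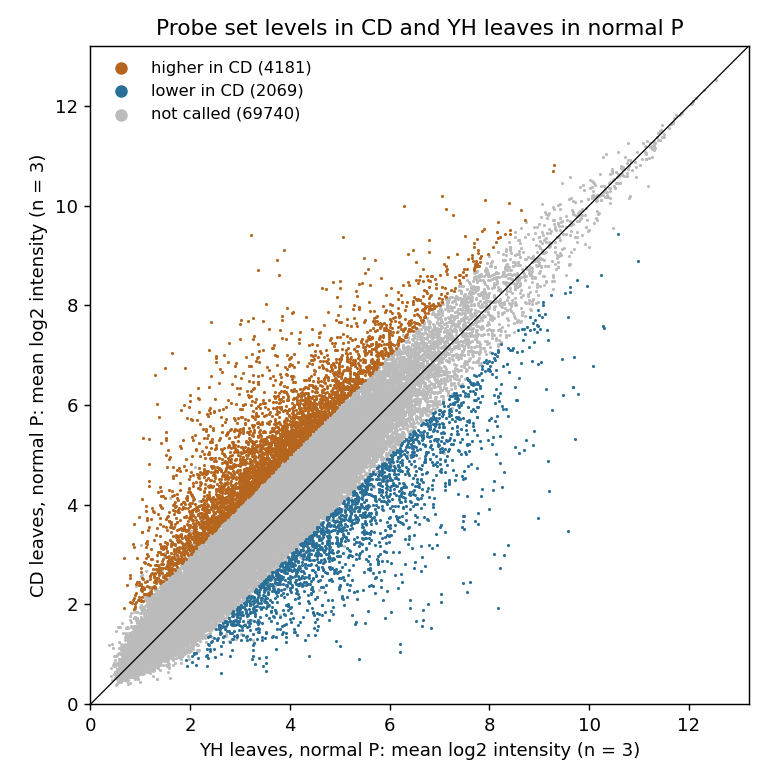
Mean log2 intensity of each of 75990 probe sets in CD leaves (vertical axis, n = 3) against YH leaves (horizontal axis, n = 3), both in normal P. Points above the diagonal are higher in CD. The 4181 probe sets called higher lie above the line of equality, the 2069 called lower lie below it, and both kinds occur from dim to bright probe sets.

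The arrays were alike in scale, with lower quartiles of log2 intensity from 1.54 to 1.67 over all 24 arrays. Arrays of 1 group correlated at r of 0.941 to 0.977 and CD with YH arrays at 0.875 to 0.935. The leaf label held in both accessions. Summed intensities of 7 leaf markers (Rubisco small subunit, Rubisco activase and light harvesting genes) were 2129 to 2341 in CD leaves and 3245 to 3978 in YH leaves, and none of 15 probe sets for seed storage genes passed the upper quartile in either. In roots in normal P the same leaf markers summed to 161 to 177 in CD and 149 to 171 in YH. Root markers (25 probe sets) summed to 295 to 314 in CD leaves and 319 to 340 in YH leaves, far under the 1220 to 1407 of CD roots and 835 to 941 of YH roots. YH replicate 2 correlated less with YH replicates 1 and 3 (0.941 and 0.964) than these did with each other (0.972), and without it 3389 probe sets were called higher and 2194 lower.

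Clock genes differed in opposite directions by their time of day. All 3 LHY-like probe sets, the morning factors, were lower in CD, and 7 of 12 evening clock probe sets were higher with none lower. LCL3 (GmLHY2a) had 3.77, 2.87 and 2.36 in CD leaves, against 8.52, 8.05 and 8.28 in YH leaves (difference -5.29 ± 0.33 (SE), adjusted p = 4.22e-10), 39.0-fold lower. LCL1 (GmLHY1a) had 6.96, 6.04 and 5.65 in CD leaves, against 9.92, 9.53 and 9.91 in YH leaves (difference -3.57 ± 0.24 (SE), adjusted p = 1.56e-09). The lowest YH array exceeded the highest CD array by a wide margin for both. LCL4 (GmLHY1b) had 5.06, 4.54 and 4.12 in CD leaves, against 7.75, 7.02 and 7.56 in YH leaves (difference -2.87 ± 0.23 (SE), adjusted p = 1.25e-08). Summed over the 3, intensity was 72.7 to 172 in CD leaves and 1135 to 1551 in YH leaves.

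Evening genes ran the other way. GIGANTEA, which works with the blue light receptor FKF1 in daylength timing, had 7.78, 7.24 and 7.49 in CD leaves, against 4.03, 4.23 and 3.13 in YH leaves (difference 3.71 ± 0.29 (SE), adjusted p = 1.46e-08), 13.1-fold higher in CD. E2, a second GIGANTEA gene and a known maturity locus of soybean, had 7.57, 6.89 and 7.22 in CD leaves, against 4.17, 4.42 and 4.73 in YH leaves (difference 2.78 ± 0.20 (SE), adjusted p = 4.03e-09). FKF1 had 5.83, 5.27 and 5.48 in CD leaves, against 2.68, 3.23 and 2.56 in YH leaves (difference 2.71 ± 0.20 (SE), adjusted p = 4.16e-09). No CD array overlapped a YH array for these genes. The evening complex of ELF3, ELF4 and LUX represses day genes at dusk in Arabidopsis, and 3 probe sets for it were called. ELF4B had 7.99, 8.12 and 8.36 in CD leaves, against 4.41, 5.24 and 5.17 in YH leaves (difference 3.22 ± 0.20 (SE), adjusted p = 3.83e-10), and ELF4A differed by 2.93 ± 0.25 (adjusted p = 5.08e-08). LUXB differed by 1.67 ± 0.22 (adjusted p = 1.69e-05). TOC1 just reached the fold threshold, with 3.58, 4.67 and 4.41 in CD leaves, against 3.07, 3.66 and 2.92 in YH leaves (difference 1.0 ± 0.23 (SE), adjusted p = 0.00353). It kept an adjusted p under the threshold but not the fold without any of CD replicates 2 and 3 or YH replicates 1 and 3 (differences 0.78, 0.91, 0.93 and 0.86), nor did it keep the fold under quantile normalization or median centring (0.96 each).

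Of the other 5 evening probe sets, LUXC differed by 0.83 (adjusted p = 0.0252), ZTL2 by 0.69 (adjusted p = 0.00104) and ZTL1 by 0.43 (adjusted p = 0.0451), each short of 2-fold. ZTL differed by 0.33 (adjusted p = 0.421) and ELF3A by -0.14 (adjusted p = 0.604). The median of the 12 was 1.34, against -0.06 over all probe sets, and 9 of the 12 had all CD arrays above all YH arrays. Summed intensity of the 12 was 905 to 1132 in CD leaves and 257 to 269 in YH leaves.

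The same clock genes were also read on arrays that this comparison did not use. In low P leaves, where 4.76% of all probe sets were called higher and 2.16% lower in CD, 8 of 12 evening probe sets were higher and 3 of 3 LHY-like ones lower. In normal P roots, where the shares over all probe sets were 1.67% and 1.34% (3.01% in either direction), 3 were higher and 3 lower. In low P roots, where they were 2.24% and 1.15%, 4 were higher and 3 lower. The differences of E2 were 2.90 in low P leaves and 3.04 in normal P roots, those of GIGANTEA 3.88 and 4.30, and those of FKF1 2.91 and 2.31. For these 3 genes the leaf difference minus the root difference in normal P was -0.26 ± 0.29 (SE, adjusted p = 0.769), -0.60 ± 0.42 (SE, adjusted p = 0.543) and 0.39 ± 0.28 (SE, adjusted p = 0.555), none of them called. ELF4B differed by 0.40 in roots, and its difference was larger in leaves by 2.81 ± 0.28 (SE, adjusted p = 1.76e-06). LCL3 was lower in CD roots by less than in leaves, the leaf difference minus the root difference being -2.65 ± 0.46 (SE, adjusted p = 0.000938). The hour of harvest is not given for any group, so an accession difference in level and one in phase cannot be told apart from 1 time point.

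**Figure D2:**
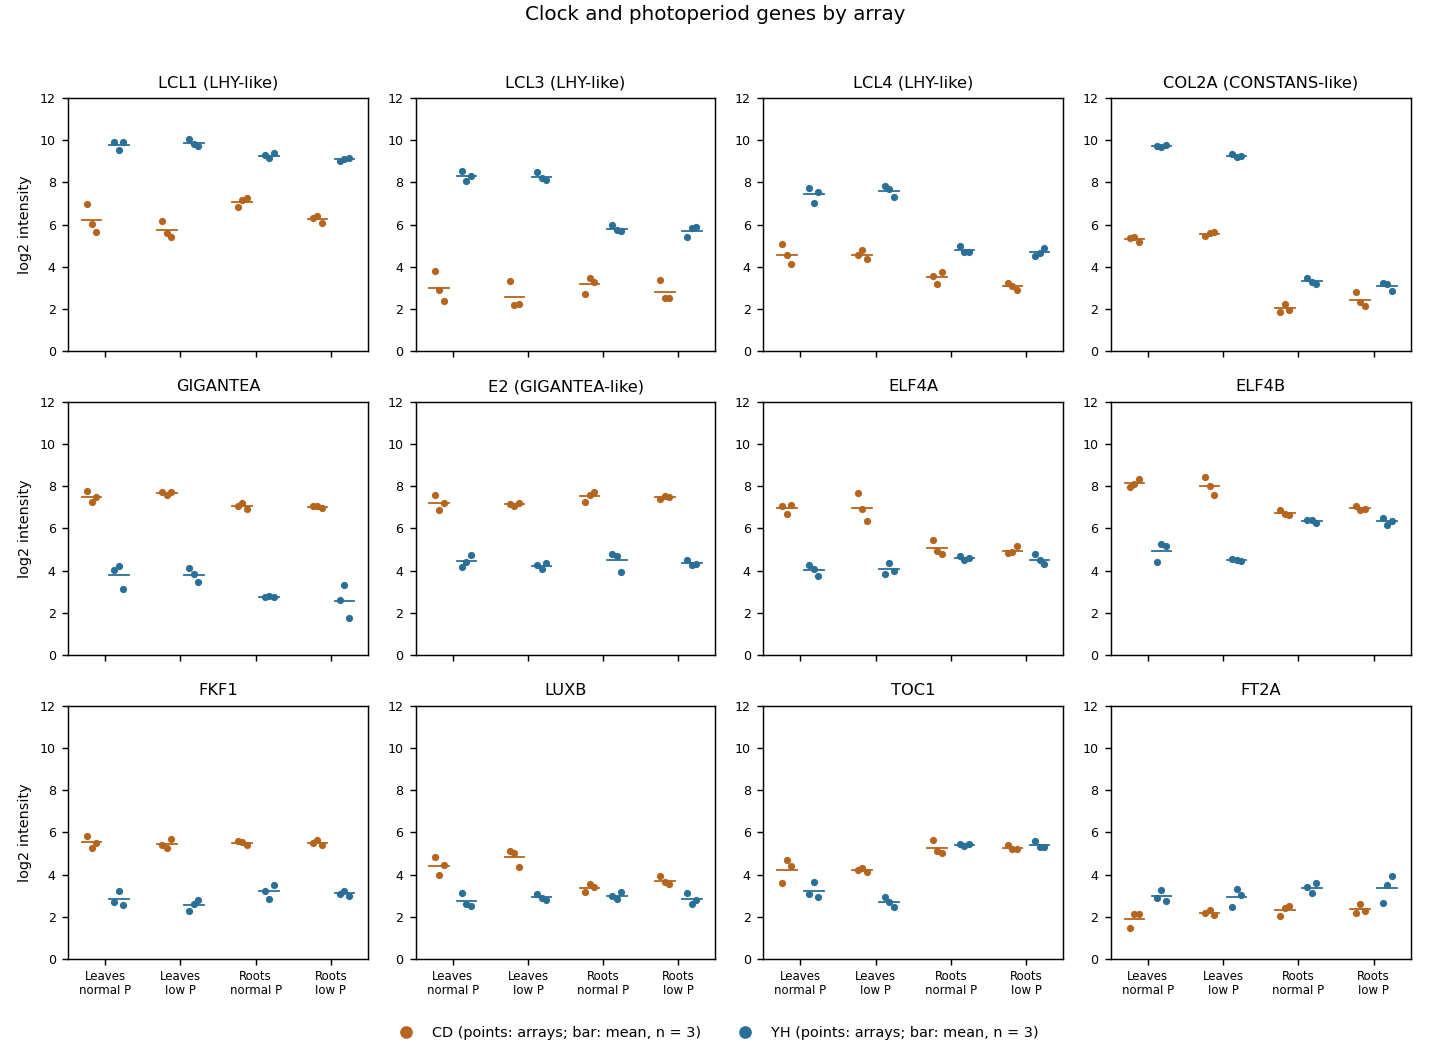
Log2 intensity (vertical axes) of 12 clock and photoperiod probe sets on every array, with CD left of YH in each setting (points are arrays, bars are means, n = 3). In normal P leaves LCL1, LCL3, LCL4 and COL2A sit lower in CD and GIGANTEA, E2, ELF4A, ELF4B, FKF1 and LUXB higher, with no overlap; TOC1 and FT2A differ by 1.0 and -1.06.

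CONSTANS-like factors, which in other plants read daylength at the end of the clock pathway, split. COL2A had 5.38, 5.39 and 5.19 in CD leaves, against 9.71, 9.69 and 9.77 in YH leaves (difference -4.40 ± 0.15 (SE), adjusted p = 9.46e-14), 21.2-fold lower in CD. COL2B had 5.03, 4.71 and 4.89 in CD leaves, against 9.44, 8.62 and 9.48 in YH leaves (difference -4.31 ± 0.22 (SE), adjusted p = 2.6e-11). COL16 went the other way, at 5.77, 5.50 and 5.70 in CD leaves, against 2.62, 2.74 and 2.73 in YH leaves (difference 2.96 ± 0.18 (SE), adjusted p = 2.71e-10), and COL17 was higher by 1.13 ± 0.14 (adjusted p = 4.57e-06). The remaining 7 of 11 CONSTANS-like probe sets were not called. COL2A differed by -3.70 and COL2B by -4.29 in low P leaves, and in normal P roots by -1.28 and -0.23. Among 18 probe sets of the FT and TFL1 family 1 was called. FT2A, a florigen of soybean, had 1.45, 2.15 and 2.13 in CD leaves, against 2.89, 3.25 and 2.75 in YH leaves (difference -1.06 ± 0.27 (SE), adjusted p = 0.0089), low values in both, and it was no longer called without CD replicate 1 (-0.83, adjusted p = 0.0589) or YH replicate 2 (-0.91, adjusted p = 0.051). FT2B differed by -0.74 (adjusted p = 0.0266) and FT5A by 0.30 (adjusted p = 0.254).

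Of the iron genes, 2 of 5 ferritin probe sets were higher in CD leaves, and 3 of 13 probe sets for NRAMP transporters were lower. The 3 probe sets for the bHLH factors BHLH300 and BHLH320 were lower too. The list was chosen with earlier results of these data known, so their count is no separate support. Of 25 probe sets 3 were higher (12%) and 6 lower (24%), against 9.18% and 4.27% of probe sets with a symbol. The median was -0.10. The ferritins SFERH-3, SFERH-4 and FER2-1 differed by 0.13, 0.25 and 0.007 and were not called. The ferritin gene H-1 (SFerH-1), whose protein stores iron in plastids, had 6.55, 6.93 and 6.45 in CD leaves, against 3.53, 2.54 and 3.10 in YH leaves (difference 3.59 ± 0.24 (SE), adjusted p = 9.93e-10), 12-fold higher in CD. A second ferritin, SFERH-2, had 3.39, 3.03 and 2.71 in CD leaves, against 1.21, 1.58 and 1.24 in YH leaves (difference 1.70 ± 0.21 (SE), adjusted p = 7.18e-06). BHLH300, a bHLH factor that in soybean promotes the response to iron shortage, had 1.14, 1.20 and 0.78 in CD leaves, against 5.84, 6.84 and 5.92 in YH leaves (difference -5.16 ± 0.23 (SE), adjusted p = 4.1e-12), 35.8-fold lower in CD. The CD values lay under the lower quartile of the arrays, so BHLH300 was near the bottom of the scale in CD leaves and well above it in YH leaves.

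BHLH320, another bHLH factor of the list, was read by 2 probe sets that differed by -3.66 ± 0.37 and -2.23 ± 0.32. The first had 1.34, 1.43 and 1.03 in CD leaves, against 5.63, 5.41 and 3.75 in YH leaves (adjusted p = 4.12e-07). Divalent metal transporters of the NRAMP family followed. NRAMP6A was lower, at -2.55 ± 0.38 (adjusted p = 5.07e-05) and NRAMP2A at -1.35 ± 0.20 (adjusted p = 5.14e-05). DMT1 (NRAMP2b) differed by -1.13 ± 0.21 (adjusted p = 0.000632), and by -0.92 without YH replicate 2. The metal transporter IRT was the third higher member, at 1.04 (adjusted p = 0.0114), but it was not called without CD replicate 2 (0.64, adjusted p = 0.101) or YH replicate 2 (0.92, adjusted p = 0.0569), and the count of higher members ran from 2 to 5 when 1 array at a time was left out, the 5 without YH replicate 1.

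For the leading iron genes the accession difference changed with P level. BHLH300 averaged 1.09 ± 0.22 in CD and 1.49 ± 0.25 in YH there (SD, n = 3 each), against 1.04 ± 0.23 in CD and 6.20 ± 0.56 in YH in normal P. The difference in low P minus that in normal P was 4.76 ± 0.33 (SE, adjusted p = 3.29e-07) for BHLH300 and -2.56 ± 0.33 (SE, adjusted p = 0.00232) for H-1. It was 3.98 ± 0.52 (SE, adjusted p = 0.00232) for the first BHLH320 probe set and was not called for the second. For BHLH300 it was the YH leaves in normal P whose level stood apart from the 3 other leaf groups. In roots both accessions held BHLH300 high, at 7.41 ± 0.25 in CD and 8.02 ± 0.24 in YH in normal P (SD, n = 3 each).

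Calls among enzymes that remove superoxide and peroxide went both ways, but only the higher ones held when single arrays were left out. Of 13 probe sets 4 were higher (30.8%) and 2 lower (15.4%) in CD, against 9.18% and 4.27% of probe sets with a symbol. The lower ones were the iron superoxide dismutases SODB, with 5.61, 4.92 and 4.51 in CD leaves, against 5.76, 8.70 and 8.12 in YH leaves (difference -2.52 ± 0.74 (SE), adjusted p = 0.0208), and SODB2, with 3.94, 3.09 and 2.83 in CD leaves, against 3.20, 7.42 and 6.26 in YH leaves (difference -2.34 ± 0.67 (SE), adjusted p = 0.0184). YH replicate 1 lay within the CD range for SODB2 and just above it for SODB, and neither was called without CD replicate 2 or 3 or YH replicate 2 or 3, when SODB differed by -2.47, -2.26, -1.93 and -2.22 and SODB2 by -2.24, -2.12, -1.45 and -2.03. Higher were the ascorbate peroxidase APX2 (1.91 ± 0.19, adjusted p = 2.54e-07), the dehydroascorbate reductases DHAR1 (1.95) and DHAR4 (1.61), and CCS, the copper chaperone of superoxide dismutase (1.43). These 4 kept their call in each of the 12 alternatives run on them.

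The photosynthesis list, which also holds genes of chlorophyll synthesis and breakdown, had 4 of 34 probe sets higher (11.8%) and 4 lower (11.8%). Its median was 0.0, and none of its psb and pet probe sets was called. The higher ones were the chlorophyll breakdown genes NYC1_1 and NYC1_2, the chlorophyll synthesis gene GSA1 (1.01) and the Rubisco small subunit RBCS1 (1.12). Neither GSA1 nor RBCS1 kept its call under quantile normalization (0.93, and 1.06 with adjusted p = 0.0681) or median centring. The lower ones were all Rubisco activase, the enzyme that frees Rubisco of inhibitory sugar phosphates. RCABETA had 7.29, 5.67 and 5.98 in CD leaves, against 9.41, 8.78 and 9.24 in YH leaves (difference -2.83 ± 0.28 (SE), adjusted p = 2.63e-07), 7.12-fold lower in CD. RCA03 had 2.52, 2.62 and 3.07 in CD leaves, against 6.42, 6.38 and 6.65 in YH leaves (difference -3.74 ± 0.17 (SE), adjusted p = 4.5e-12), and RCA14 and RCA11 were lower, at -1.82 ± 0.20 and -1.67 ± 0.35. RCAALPHA, the fifth activase probe set, differed by -0.92 ± 0.20 (adjusted p = 0.00196), short of 2-fold. Of the 7 leaf markers whose sum was smaller in CD, 5 are these activase probe sets. The count of higher photosynthesis genes ran from 2 to 5 when 1 array at a time was left out, the 2 without CD replicate 1 or 3 or YH replicate 2. The light harvesting gene CAB3 differed by 0.98 (adjusted p = 0.000126) in the other direction, also short of 2-fold, and the photosystem gene PSAD by 0.12 (adjusted p = 0.558).

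Chlorophyll and carotenoid genes differed in a few members. NYC1_2, a chlorophyll b reductase that starts the breakdown of chlorophyll b, had 7.01, 6.92 and 6.95 in CD leaves, against 3.91, 2.89 and 3.26 in YH leaves (difference 3.61 ± 0.23 (SE), adjusted p = 5.21e-10), and NYC1_1 was higher by 1.51 ± 0.27 (adjusted p = 0.000387). CHLH, a subunit of magnesium chelatase in chlorophyll synthesis, differed by -0.64 (adjusted p = 0.0903). Of 13 carotenoid and plastoquinone probe sets 5 were lower (38.5%) and 1 higher. The lower ones included 4 beta-carotene hydroxylases, which make the xanthophylls downstream of beta-carotene. BCH2 had 3.44, 3.82 and 3.53 in CD leaves, against 7.77, 6.29 and 7.04 in YH leaves (difference -3.44 ± 0.28 (SE), adjusted p = 1.77e-08), 10.8-fold lower in CD, while BCH4 and BCH5 were lower, at -1.90 ± 0.20 and -1.88 ± 0.40. BCH3 differed by -1.20 ± 0.23, and by -0.84 without YH replicate 2. HPPD, on the route to plastoquinone and tocopherol, was lower, at -1.53 ± 0.19. PTOX, a plastid terminal oxidase, was higher by 1.15, but short of 2-fold without CD replicate 1 (0.92) or YH replicate 3 (0.99).

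Sugar genes gave large differences on both sides. SWEET34, of the family of sugar exporters that load the phloem, had 4.31, 3.94 and 3.23 in CD leaves, against 7.41, 8.25 and 7.65 in YH leaves (difference -3.94 ± 0.31 (SE), adjusted p = 1.13e-08), 15.4-fold lower in CD. SWEET29 had 3.77, 3.81 and 3.44 in CD leaves, against 7.32, 7.70 and 7.40 in YH leaves (difference -3.80 ± 0.23 (SE), adjusted p = 2.97e-10). SWEET20 had 3.06, 6.51 and 5.99 in CD leaves, against 1.70, 2.05 and 1.62 in YH leaves (difference 3.40 ± 0.86 (SE), adjusted p = 0.00771), with CD replicate 1 under the other CD arrays, and was not called without CD replicate 2 (2.74, adjusted p = 0.0592). Of 32 SWEET probe sets 1 was higher and 4 lower, and 27 were not called. Beta-amylases, which release maltose from starch, also split: BMY2 had 5.82, 4.58 and 4.70 in CD leaves, against 8.28, 8.82 and 8.64 in YH leaves (difference -3.55 ± 0.30 (SE), adjusted p = 3.74e-08), and LOC547684 (synonym BMY1) was lower, at -3.51 ± 0.25 (adjusted p = 3.22e-09). LOC547931, also listed with the synonym BMY1, had 7.69, 9.59 and 9.58 in CD leaves, against 5.84, 5.92 and 4.67 in YH leaves (difference 3.47 ± 0.43 (SE), adjusted p = 5.54e-06), 11.1-fold higher in CD. All 3 were called in the same direction in low P leaves, at -2.50, -2.74 and 2.91.

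**Figure D3:**
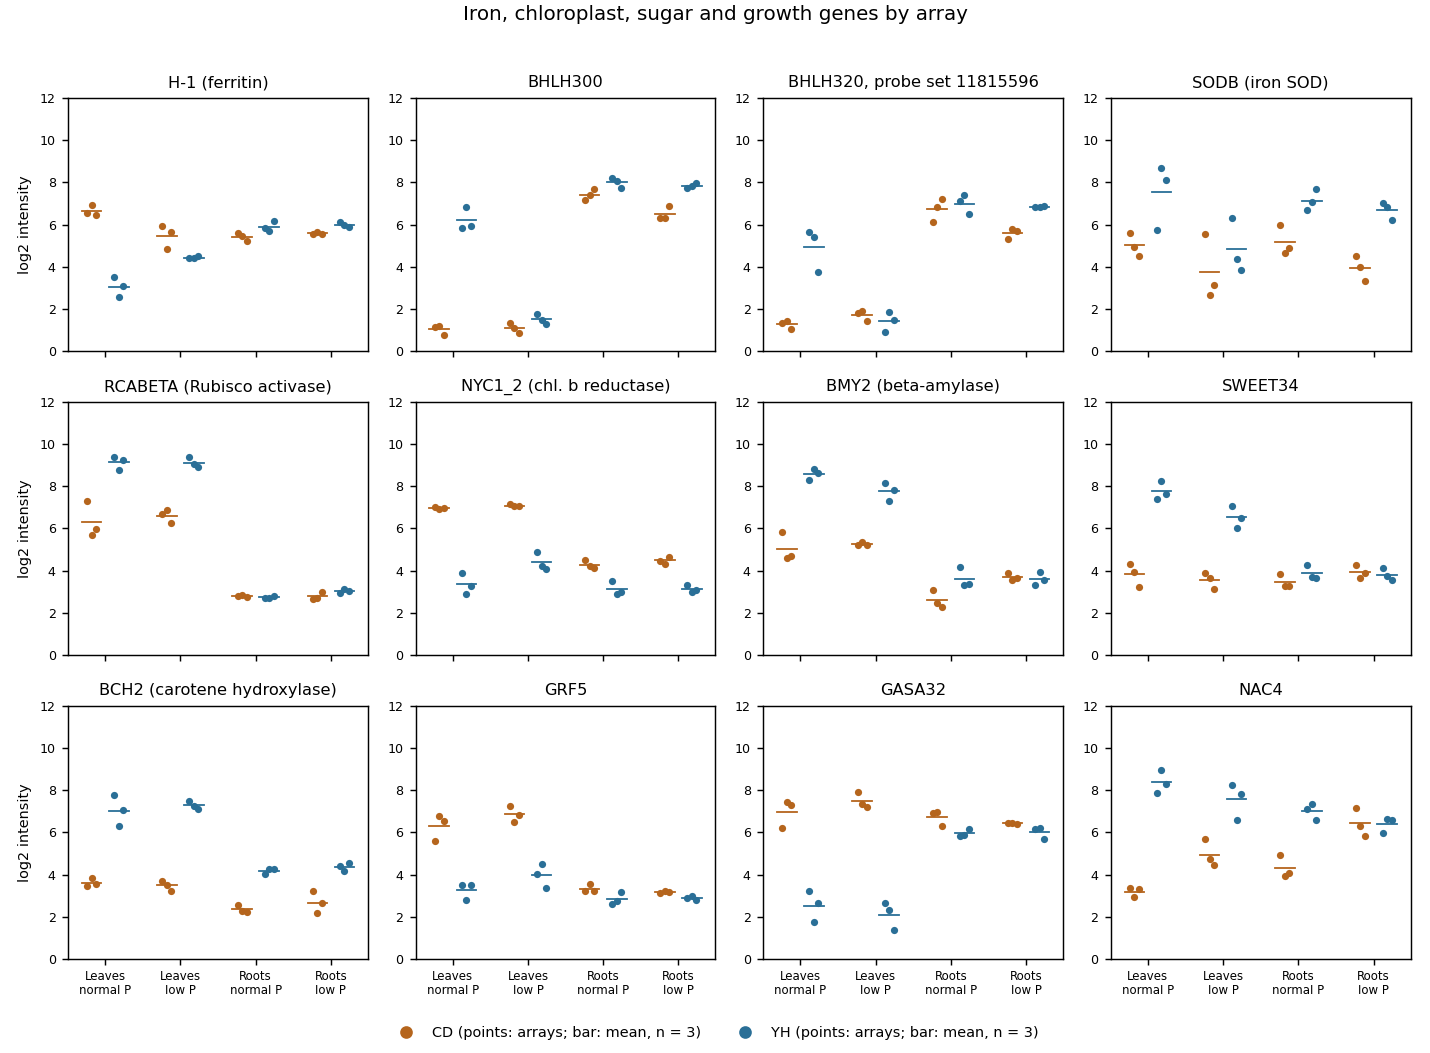
Log2 intensity (vertical axes) of 12 probe sets for iron, chloroplast, sugar and growth genes on every array, with CD left of YH in each setting (points are arrays, bars are means, n = 3). H-1, NYC1_2, GRF5 and GASA32 sit higher in CD leaves in normal P and the others lower, and BHLH300 in YH leaves averages 6.20 in normal P and 1.49 in low P.

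The called members of a list of growth genes were all higher in CD. Among 24 probe sets for growth-regulating factors, PCNA and HD2-type histone deacetylases 11 were higher (45.8%, against 9.18% of probe sets with a symbol) and none lower, with a median of 0.99. GRF5, a growth-regulating factor that promotes cell division in young leaves of Arabidopsis, had 5.61, 6.79 and 6.55 in CD leaves, against 3.51, 2.80 and 3.50 in YH leaves (difference 3.05 ± 0.29 (SE), adjusted p = 2.07e-07), 8.27-fold higher in CD. PCNA, the sliding clamp of DNA replication (listed as LOC548079), had 4.79, 6.92 and 5.60 in CD leaves, against 3.72, 2.58 and 3.39 in YH leaves (difference 2.54 ± 0.38 (SE), adjusted p = 6.65e-05). The plant histone deacetylase gene HDT4 was higher by 2.41 ± 0.21 and LOC100792094 (GmHDT5) by 2.29 ± 0.31. GRF13 (2.0) and GRF4 (1.61) were higher as well. The median member of this list stood 1.16 above the mean of the 6 arrays on CD replicate 2, 0.09 and 0.24 above it on CD replicates 1 and 3, and 0.34 to 0.48 below it on the YH arrays. Without CD replicate 2 the count was 9. Of the 24, 11 were higher in CD in low P leaves too, and in roots 0 were called at either P level. In whole leaves a larger share of dividing cells and more RNA per cell cannot be told apart. Which leaves of a plant were taken is not given in the sources used here.

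Calls in other families tied to growth were mostly higher too, as were 66.9% of all calls. Of all probe sets with a symbol 9.18% were higher and 4.27% lower. IQD proteins, which bind calmodulin at microtubules and membranes, had 12 of 54 probe sets higher (22.2%) and 1 lower (1.85%). IQD30 was higher by 2.30 ± 0.23 and IQD7 by 1.84 ± 0.21, and 11 of the 54 were higher in low P leaves. GASA peptides, a family responsive to gibberellin, had 5 of 28 higher (17.9%) and 1 lower (3.57%). GASA32 had 6.20, 7.45 and 7.31 in CD leaves, against 3.21, 1.73 and 2.63 in YH leaves (difference 4.46 ± 0.36 (SE), adjusted p = 1.82e-08), 22.1-fold higher in CD, and GASA6 had 7.81, 8.56 and 8.67 in CD leaves, against 4.76, 4.80 and 4.36 in YH leaves (difference 3.70 ± 0.25 (SE), adjusted p = 1.62e-09). GASA10 was bright in both accessions, with 10.12, 10.15 and 10.28 in CD leaves, against 7.26, 6.89 and 6.98 in YH leaves (difference 3.14 ± 0.29 (SE), adjusted p = 1.34e-07). The count of higher GASA probe sets was 8 without CD replicate 1. For wall loosening, XTH1, a xyloglucan endotransglucosylase, was higher by 2.80 ± 0.30, the endoglucanase gene CEL7 by 3.10 ± 0.51 and the expansin EXPB8 by 1.72 ± 0.25, while the expansin EXP2 was lower, at -1.91 ± 0.32. Of 31 cell wall probe sets 6 were higher (19.4%) and 1 lower (3.23%).

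Gibberellin oxidases differed singly. GA2OX4, of the class that inactivates gibberellins, had 5.47, 4.79 and 5.07 in CD leaves, against 2.05, 2.19 and 2.08 in YH leaves (difference 3.0 ± 0.19 (SE), adjusted p = 4.83e-10), and GA2OX6, of the same class, had 1.46, 1.19 and 1.67 in CD leaves, against 4.06, 4.08 and 4.10 in YH leaves (difference -2.64 ± 0.24 (SE), adjusted p = 1.22e-07). They lay 8.0-fold higher and 6.22-fold lower in CD. GA3OX3, of the class that makes active gibberellins, differed by -1.99 ± 0.60 (adjusted p = 0.0242), a call lost without CD replicate 1 or 3 or YH replicate 2. The other 17 of 20 were not called.

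The NAC, WRKY and MYB transcription factors that were called were mostly lower in CD. NAC factors had 12 of 43 probe sets lower (27.9%, against 4.27%) and 1 higher, with a median of -0.40. NAC4 had 3.34, 2.94 and 3.30 in CD leaves, against 7.88, 8.96 and 8.30 in YH leaves (difference -5.19 ± 0.42 (SE), adjusted p = 1.77e-08), 36.4-fold lower in CD. NAC32 (LOC100170751) had 3.10, 3.24 and 3.06 in CD leaves, against 5.97, 8.20 and 6.36 in YH leaves (difference -3.71 ± 0.42 (SE), adjusted p = 1.79e-06), and NAC27 was lower, at -3.45 ± 0.39 (adjusted p = 1.78e-06). All CD arrays lay below all YH arrays for 20 of the 43, against 15.6% of all probe sets. Low P leaves gave 3 lower and 0 higher NAC probe sets.

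WRKY factors, many of which act in defence and senescence, had 13 of 56 probe sets lower (23.2%) and 1 higher, with a median of -0.39. WRKY61 had 4.41, 3.41 and 3.60 in CD leaves, against 6.32, 8.01 and 6.41 in YH leaves (difference -3.11 ± 0.34 (SE), adjusted p = 1.56e-06), and WRKY49 had 6.60, 6.01 and 5.68 in CD leaves, against 8.08, 9.16 and 8.37 in YH leaves (difference -2.44 ± 0.32 (SE), adjusted p = 1.23e-05). YH replicate 2 was the highest array for both. The median WRKY member stood 0.47 above the mean of the 6 arrays on YH replicate 2, 0.08 and 0.04 above on YH replicates 1 and 3, and 0.13 to 0.25 below on the CD arrays, and 11 were lower without YH replicate 2. WRKY calls in low P leaves were 2 lower and 4 higher. WRKY58, the 1 higher member, differed by 1.40 ± 0.33 (adjusted p = 0.00454). WRKY55 was lower in CD in normal P (-1.09, adjusted p = 0.0104) and higher in low P (1.29), and the change in the difference was 2.39 ± 0.41 (SE, adjusted p = 0.0443). Its call in normal P was lost without CD replicate 3 or YH replicate 2.

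MYB factors had 13 of 76 probe sets lower (17.1%) and 1 higher, a count that includes the 3 LHY-like genes. MYB177 had 2.04, 2.60 and 2.11 in CD leaves, against 7.17, 8.12 and 7.38 in YH leaves (difference -5.31 ± 0.24 (SE), adjusted p = 4.5e-12), 39.6-fold lower in CD, and MYB173 had 2.81, 2.28 and 2.28 in CD leaves, against 7.90, 7.26 and 7.65 in YH leaves (difference -5.15 ± 0.30 (SE), adjusted p = 1.72e-10). MYB177 was lower in CD also in low P leaves (-4.0) and in normal P roots (-5.65). Among bHLH and bZIP factors, 12 of 92 were higher (13%) and 8 lower (8.7%), against 9.18% and 4.27% of probe sets with a symbol. The lower count includes the 3 probe sets of BHLH300 and BHLH320 given with the iron genes. BZIP124 was higher by 3.50 ± 0.33 and 2.54 on its 2 probe sets, and BZIP126 by 2.34 ± 0.23 and 2.65. BZIP105, at -2.83 ± 0.21, and BZIP104, at -2.25 ± 0.22, were lower. AP2/ERF and DREB factors had 3 of 34 lower and 0 higher (5 and 2 without YH replicate 1), and heat shock factors and proteins 2 of 51 on each side (4 lower without CD replicate 1).

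**Figure D4:**
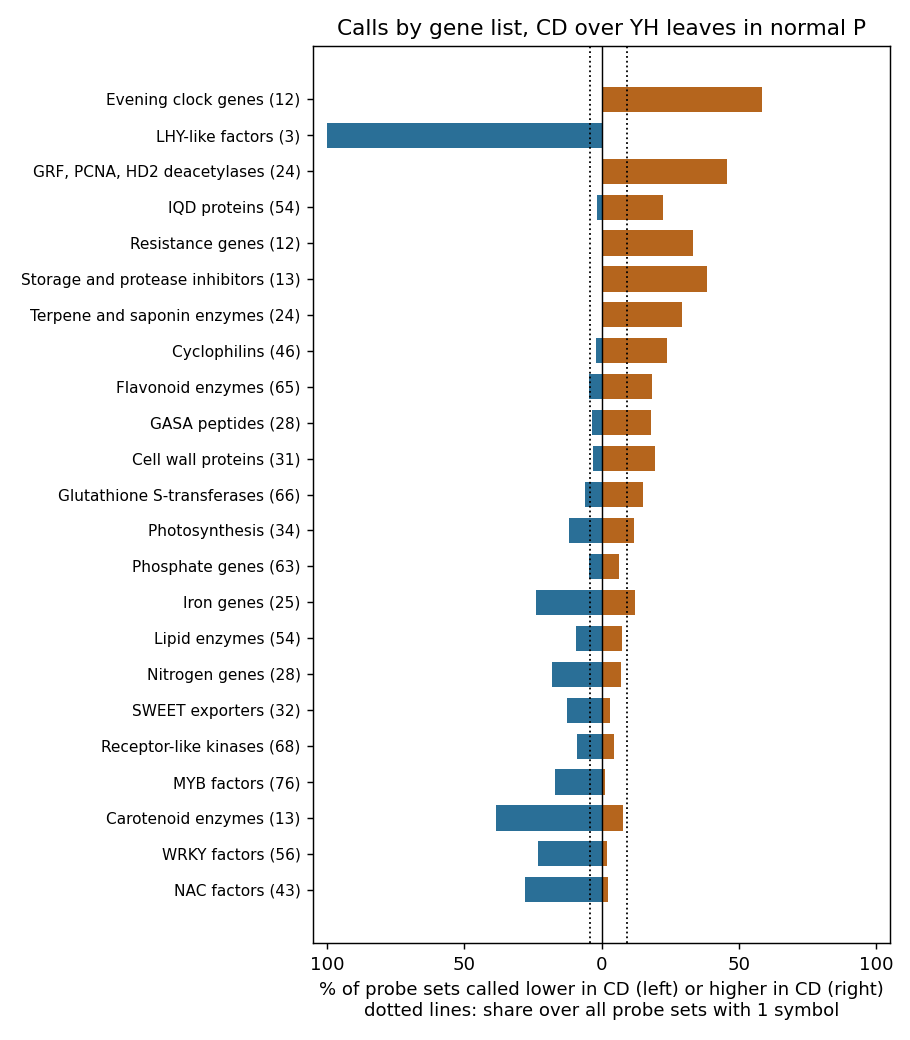
Share of probe sets (horizontal axis, %) called higher (right) or lower (left) in CD than in YH leaves in normal P, by gene list, with the number of probe sets in parentheses. Dotted lines mark the shares over all probe sets with a symbol, 9.18% higher and 4.27% lower. Evening clock and growth genes extend furthest to the right and LHY-like, carotenoid, NAC and iron genes furthest to the left among the lists drawn.

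Defence and secondary metabolism genes are given by family, against the background in which 66.9% of all calls were higher, and several of their counts moved with single arrays. Pathogenesis-related and defence signalling genes had 1 of 22 probe sets higher (4.55%) and 3 lower (13.6%), against 9.18% and 4.27% of probe sets with a symbol. The lower ones were MMP2 and both probe sets of PAD4, a regulator of salicylate defence. The PAD4 probe sets differed by -1.10 and -1.02, but by -0.87 and -0.60 without YH replicate 2, short of 2-fold. The second was also short of it without CD replicate 3 (-0.89). Flavonoid enzymes had 12 of 65 probe sets higher and 3 lower, but 6 higher without CD replicate 2 and 7 without YH replicate 2. CHI3A1, a chalcone isomerase, had 7.03, 7.41 and 7.26 in CD leaves, against 5.95, 3.98 and 5.26 in YH leaves (difference 2.17 ± 0.36 (SE), adjusted p = 0.000156), and CHR4, a chalcone reductase of the isoflavonoid branch, had 5.64, 5.97 and 5.72 in CD leaves, against 3.53, 3.75 and 3.64 in YH leaves (difference 2.13 ± 0.16 (SE), adjusted p = 4.92e-09). UGT78K1, which glucosylates anthocyanidins, was higher by 1.80 ± 0.34. Chalcone synthases, the entry enzymes, went both ways. CHS4A had 5.22, 6.90 and 5.63 in CD leaves, against 8.52, 8.02 and 8.47 in YH leaves (difference -2.42 ± 0.32 (SE), adjusted p = 1.41e-05), and CHS1 was lower, at -1.83 ± 0.41, while CHS14 and CHS8 were higher by 1.55 ± 0.34 and 1.38 ± 0.23. CHS14 differed by 1.02 without YH replicate 2. Close copies of chalcone synthase may share probes, so single copies are uncertain. Terpene and saponin enzymes had 7 of 24 higher, 4 without YH replicate 2, and SGT3, a soyasaponin glycosyltransferase, was higher by 2.17 ± 0.39.

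Vegetative storage proteins and protease inhibitors, which leaves build up as a nitrogen store and against herbivores, had 5 of 13 probe sets higher and none lower. The higher share was 38.5%, against 9.18% of probe sets with a symbol, and the count was 3 without CD replicate 3 or YH replicate 2. The higher ones include both probe sets of KTI-2, and LOXB1, which the lipoxygenase list below counts again. VSPB (LOC547820) had 6.03, 8.47 and 8.51 in CD leaves, against 6.46, 3.47 and 5.01 in YH leaves (difference 2.69 ± 0.64 (SE), adjusted p = 0.00465), with CD replicate 1 below YH replicate 1. The Kunitz trypsin inhibitor gene KTI-3 had 4.42, 5.48 and 4.79 in CD leaves, against 3.37, 3.47 and 2.43 in YH leaves (difference 1.80 ± 0.31 (SE), adjusted p = 0.000286). Lipoxygenase and jasmonate synthesis genes, LOXB1 included, had 4 of 16 higher (25%) and 2 lower (12.5%), but 2 and 0 without YH replicate 2. LOX9, a lipoxygenase, was higher by 2.41 ± 0.51 (1.58 without CD replicate 2), and the jasmonate synthesis genes AOC5 and AOC3 differed by 1.56 ± 0.36 and -1.05 ± 0.27 in opposite directions. AOC3 fell short of a call without CD replicate 1 or YH replicate 2 or 3.

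The list of glutathione S-transferases, many of which conjugate glutathione to reactive compounds, had 10 of 66 probe sets higher (15.2%) and 4 lower (6.06%). The shares of probe sets with a symbol were 9.18% and 4.27%, and the lower count was 2 without YH replicate 2. Its higher members include DHAR1 and DHAR4, counted above with the ascorbate enzymes, and EF1BGAMMA3, named for an elongation factor. GSTU51 (LOC548030) had 7.07, 6.22 and 6.47 in CD leaves, against 2.24, 2.69 and 2.32 in YH leaves (difference 4.17 ± 0.21 (SE), adjusted p = 1.92e-11), 18-fold higher in CD, and was higher in low P leaves (4.11) and normal P roots (2.24) too. Resistance genes had 4 of 12 higher and none lower. RSV3, a locus for resistance to soybean mosaic virus, was read by 2 probe sets at 2.38 ± 0.25 and 1.69 ± 0.31. The first differed also in normal P roots (2.22) and the second did not reach a call there (-0.34). SNAP18, of the cyst nematode resistance locus, was higher by 1.18 ± 0.19. The matrix metalloproteinase MMP2 had 5.01, 4.52 and 4.72 in CD leaves, against 7.53, 7.88 and 7.86 in YH leaves (difference -3.01 ± 0.31 (SE), adjusted p = 4.84e-07). MMP2 averaged 6.59 ± 0.08 in CD and 7.09 ± 0.35 in YH in low P leaves (SD, n = 3 each), a change in the difference of 2.51 ± 0.43 (SE, adjusted p = 0.0458). A second MMP2 probe set differed by -0.86 (adjusted p = 0.00633), and its change with P level was not called. Cyclophilins had 11 of 46 higher and 1 lower, 7 without CD replicate 2 or YH replicate 3, and the lower one, CYP28, was 15.0-fold lower at -3.91 ± 0.21.

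Genes of phosphate supply, the subject of the series, were called at a rate close to the background when phosphorus was sufficient: 4 of 63 higher (6.35%) and 3 lower (4.76%), against 9.18% and 4.27%. The count of higher ones was 1 without YH replicate 2 and 7 without YH replicate 1, and that of lower ones 5 without CD replicate 1. SPX4, of the family of SPX proteins that sense inositol pyrophosphates, had 4.95, 4.06 and 4.35 in CD leaves, against 2.78, 2.79 and 2.65 in YH leaves (difference 1.71 ± 0.20 (SE), adjusted p = 2.85e-06). PHR, listed under the name of the phosphate starvation regulators, had 4.36, 4.69 and 4.31 in CD leaves, against 6.78, 6.15 and 6.74 in YH leaves (difference -2.10 ± 0.21 (SE), adjusted p = 4.88e-07). PHT1-10, a phosphate transporter, was lower, at -1.35 ± 0.26. SPX4 differed by 2.01, PHR by -2.34 and PHT1-10 by -1.59 in low P leaves, each called there in the same direction.

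Nitrogen genes had 5 of 28 probe sets lower (17.9%) and 2 higher (7.14%), against 4.27% and 9.18% of probe sets with a symbol. The lower count was 2 without YH replicate 2 and 3 without CD replicate 3. AS1, an asparagine synthetase, had 4.02, 2.44 and 2.48 in CD leaves, against 5.68, 5.91 and 5.18 in YH leaves (difference -2.61 ± 0.30 (SE), adjusted p = 2.68e-06), and NIR, nitrite reductase, was lower, at -1.38 ± 0.25. The cytosolic glutamine synthetases GS1beta2 (LOC547953) and GS1beta1 (LOC548082) were higher by 1.50 ± 0.28 and 1.30 ± 0.21. Lipid enzymes had 4 of 54 higher (7.41%) and 5 lower (9.26%), and 2 higher without CD replicate 2. FAD6.1, a plastid desaturase, had 6.23, 5.94 and 6.13 in CD leaves, against 8.66, 8.44 and 8.56 in YH leaves (difference -2.45 ± 0.13 (SE), adjusted p = 4.9e-11), and it differed in normal P roots by -1.59. SLD1.5, a sphingolipid desaturase, was higher by 2.50 ± 0.25. Receptor-like kinases had 3 of 68 higher (4.41%) and 6 lower (8.82%). The higher count was 6 without CD replicate 3 and the lower count 4 without CD replicate 2 or YH replicate 2.

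The largest differences were mostly in genes without a functional name. The 12 largest higher differences with a single symbol ran from 4.48 to 6.20 and all 12 were numbered loci; the 12 largest lower ones ran from 4.98 to 6.24 in size and 7 of them were. LOC100805716 had 8.84, 9.76 and 9.62 in CD leaves, against 2.94, 2.73 and 3.98 in YH leaves, 73.3-fold higher in CD (adjusted p = 2.64e-10). LOC100797103 had 1.98, 2.05 and 1.74 in CD leaves, against 8.49, 7.85 and 8.14 in YH leaves, 75.5-fold lower in CD (adjusted p = 6.17e-14). All 12 of the higher set were called higher in low P leaves and 3 in normal P roots, and of the lower set 11 were called lower in low P leaves and 9 in normal P roots. The exception in low P leaves was BHLH300. Among probe sets without a single symbol, 12095377 was highest over YH at 5.41 ± 0.24 and 11820775 furthest below at -6.11 ± 0.27. In 289 of the higher calls (6.91%) the YH mean, and in 178 of the lower calls (8.6%) the CD mean, lay under the lower quartile of the arrays, so that the size of these differences rests on values near the bottom of the scale.

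Set beside the other accession comparisons, the leaf differences recurred in leaves more than in roots. The group means of those comparisons share no array with this one, but all comparisons use the same pooled estimate of the spread. Of the 4181 higher probe sets, 2793 (66.8%) were also called higher in low P leaves and 0 lower, and these made up 77.2% of the 3617 called higher there. Over all probe sets 4.76% were called higher in low P leaves. In normal P roots 385 (9.21%) were called higher, against 1.67% of all probe sets, and 19 lower. Of the 2069 lower probe sets, 1198 (57.9%) were also lower in low P leaves, where 2.16% of all were, and 353 (17.1%) in normal P roots, against 1.34% of all. Counts in low P roots were 378 and 283. Called in all 4 settings were 269 higher and 162 lower probe sets, and in leaves at both P levels but in neither root comparison 2400 and 912. Over all probe sets the differences in normal P leaves correlated with those in low P leaves at Pearson r = 0.865 (Spearman 0.773), in normal P roots at 0.391 (0.416) and in low P roots at 0.322 (0.388), across probe sets, which are not independent replicates.

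**Figure D5:**
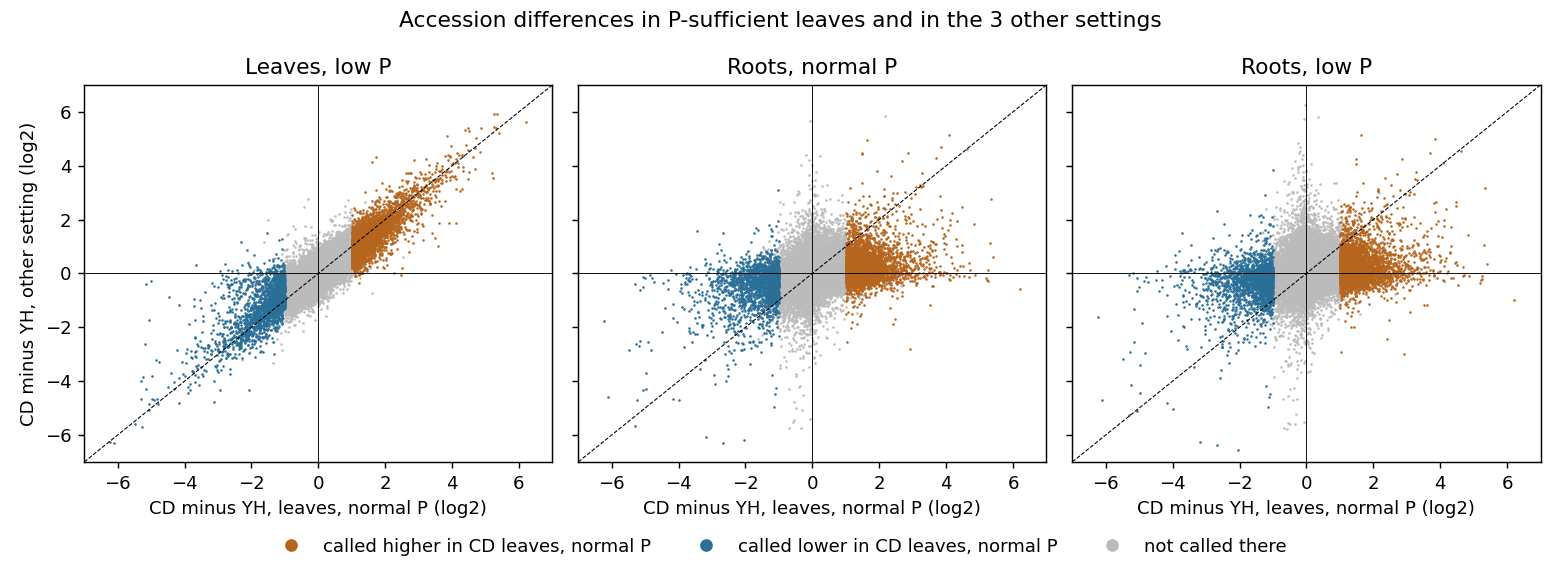
CD minus YH on the log2 scale in low P leaves, normal P roots and low P roots (vertical axes) against the same difference in normal P leaves (horizontal axis) for each of 75990 probe sets, with the diagonal dashed. Points follow the diagonal in low P leaves (r = 0.865) and spread along the horizontal axis in roots (r = 0.391 and 0.322).

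The change of the accession difference with tissue was tested directly. In 4334 probe sets (5.7% of those tested) the leaf difference minus the root difference in normal P was called, 2645 above 0 (3.48%) and 1689 below (2.22%). It was called in the direction of the leaf difference in 1964 of the 4181 higher probe sets (47%) and in 875 of the 2069 lower ones (42.3%). RCA03, lower by 3.74 in CD leaves, differed by -0.40 in roots, a change of -3.34 ± 0.24 (SE, adjusted p = 2.5e-08). SWEET34 differed by -0.41 in roots, a change of -3.54 ± 0.43 (SE, adjusted p = 2.22e-05), and GASA6 by 0.64, a change of 3.06 ± 0.36 (SE, adjusted p = 1.13e-05). MYB177, GIGANTEA and E2 were among those with no call for tissue, with changes of 0.34, -0.60 and -0.26.

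The change with P level was called in 18 probe sets (0.0237%), 16 above 0 (0.0211%) and 2 below (0.00263%). The 16 were called lower in CD in normal P and the 2 higher, and in low P they lay closer to YH or had the other sign. Within an accession, leaves in low P against normal P had 16 probe sets higher (0.0211%) and 65 lower (0.0855%) in YH, 0.107% in all, and 3 higher (0.00395%) and 0 lower in CD. Among the 16 were BHLH300, WRKY55 and a single probe set each of BHLH320 and MMP2, whose second probe sets were not called. The 2 were H-1 and LOC100500575. LOC100500575 had 8.11, 7.94 and 8.12 in CD leaves, against 6.25, 4.98 and 5.53 in YH leaves in normal P, and the change was -2.52 ± 0.34 (SE, adjusted p = 0.00393). Among the 16 called above 0, the difference in low P minus that in normal P ran from 1.77 to 4.76. The count depended on single arrays: it was 51 and 30 without YH replicates 1 and 3 in normal P, 11 and 10 without CD replicates 2 and 3 in normal P, 9 and 8 without CD replicates 1 and 2 in low P, and 54 and 9 without YH replicates 1 and 3 in low P.

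Genes read by several probe sets gave a check within each array. Of 1209 such genes 245 had at least 1 call, 63 of these had every probe set called in the same direction and 3 had calls both ways. Chromosomal order was taken from the RefSeq annotation of the assembly Glycine_max_v4.0, for neighbourhood only. Of 2926 genes called higher with a next gene on the array, 330 had that neighbour called higher too (11.3%, against 9.41% of genes), and of 1358 called lower 93 did (6.85%, against 4.37%). The longest run was 4 genes in each direction.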

How the data were processed

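Leaf RNA of 3 CD and 3 YH samples in normal P was hybridised to the Affymetrix soybean gene array, designed on the Glyma gene models. The authors deposited 1 linear intensity per probe set and array, summarised from background-subtracted probes and normalized between arrays (RMA per the methods, MAS5 per the submitters' processing notes, version not given). All 24 columns were used, with 0 missing values and 0 identical arrays. Intensities were put on the log2 scale with no filter and no further normalization. limma 3.58.1 (R 4.3.3) was fitted with 8 group means to 24 arrays (16 residual and 4.22 prior degrees of freedom), p-values were adjusted by Benjamini-Hochberg over 75990 probe sets, and calls required an adjusted p under 0.05 and a fold of 2. Signals have no read depth, so the number of arrays limits the precision, and an exact permutation test of 3 against 3 arrays cannot go below p = 0.1. The p-values rest on the spread between arrays within groups, pooled over all 8 groups and 24 arrays, roots and low P included. How plants were divided among replicates is not given in the sources used here, so what that spread covers is not known.

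Probe sets were named through GEO's platform annotation, with symbols updated by RefSeq (32402 of 32405 matched). Gene lists rest on symbols and RefSeq synonyms only. The comparison and the lists were chosen with earlier results of these data known, and list stems were corrected to the annotation. Named are the 12 largest called differences with 1 symbol in each direction, up to 3 called members with the smallest p in each direction per list (or the 1 with the smallest p), the 3 largest without a single symbol, up to 5 called for each interaction and direction, and further list members chosen after their values were seen, 244 probe sets in all. The text describes those with a known role. Tried as alternatives were scaling by quantiles or by array medians, a filter on the dimmest probe sets, fits to 6 or 12 arrays alone, SAM (the methods' test, 20 label assignments), a replicate block, other thresholds and each array left out. Leaving out each low P leaf and normal P root array was added after seeing the data. The fit was tested on simulated data first.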

Additional observations from a re-analysis of the deposited data

Results flagged for a closer look

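The results below are those in which the accession difference in normal P leaves was itself shown to change with P level or with tissue, by an interaction term in the fit. For P level, the difference in low P leaves minus that in normal P leaves was called in 18 probe sets. The values were 4.76 for BHLH300, 4.72 and 3.33 for the probe sets 12182632 and 12157982, which carry no single symbol, 3.0 for LOC100306161 and 2.69 for LOC100306340. They were -2.56 for the ferritin gene H-1 and -2.52 for LOC100500575. LOC100306161 had 3.93, 3.53 and 3.37 in CD leaves, against 7.71, 7.54 and 8.06 in YH leaves in normal P, and in low P leaves it averaged 5.75 ± 0.22 in CD and 6.91 ± 0.49 in YH (SD, n = 3 each). LOC100306340 averaged 4.84 ± 0.10 in CD and 8.21 ± 0.18 in YH in normal P, against 7.24 ± 0.13 and 7.93 ± 0.32 in low P.

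For tissue, the difference in normal P leaves minus that in normal P roots was called in 4334 probe sets. In each direction, the 5 with the smallest p are given. Above 0 these were 5.40 for LOC100791196, 4.32 for LOC100788953, 4.20 for LOC100782877, 4.19 for the probe set 11889885 and 3.97 for LOC100500642. Below 0 they were -5.72 for LOC100305359, -4.80 for LOC100779800, -4.58 for LOC100801597, -4.10 for LOC100790398 and -4.02 for the probe set 12129509. For LOC100791196, LOC100305359, LOC100801597 and 12129509 the difference lay in roots, and the leaf difference was -0.34, -0.08, -0.18 and 0.00351. LOC100790398 was lower in CD leaves (-1.01, short of 2-fold at -0.78 without CD replicate 1 and -0.94 without YH replicate 3) and higher in CD roots (3.09).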

How the results depend on the processing

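The counts of probe sets higher and lower in CD leaves stayed within 1.5 times of 4181 and 2069 under quantile normalization (3931 and 2277), median centring (3865 and 2209), without the dimmest probe sets (4081 and 1987), in separate fits of the 12 leaf arrays (3633 and 1790) and of the 6 arrays (3173 and 1613), by SAM (3907 and 1769) and at an adjusted p under 0.01 (3692 and 1777). With no fold threshold they were 8611 and 5128. The share of calls that were higher was 66.9%, and 63.3% and 63.6% under quantile normalization and median centring, which moved the median difference to -0.04 and -0.10. Leaving out 1 array at a time gave 3389 to 5131 higher and 1884 to 2221 lower probe sets, 3371 to 5016 for the interaction with tissue and 8 to 54 for that with P level. At an adjusted p under 0.01 the interactions had 2537 and 8 calls. Deviations from the group means of same-numbered arrays correlated at 0.06, -0.10 and 0.12, so the numbers were not taken to pair samples, and a replicate block gave 4214 higher and 2112 lower. Among 244 named probe sets and 12 alternatives, the sign turned in 2 that were not called in leaves and were named through roots: the probe set 12129509 under median centring (-0.037) and without single arrays (-0.0489 to 0.035), and LOC100305359 without single arrays (-0.231 to 0.100). In the separate fit of the 6 arrays 39 named probe sets lost their call and without YH replicate 2 31 did, against 6 under quantile normalization and 5 under median centring. Named probe sets that the filter on dim ones removes have no value there. The cause was not tested. Array intensity near the bottom of the scale limits the size of differences in dim probe sets.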

Other observations

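Further gene families were read in the same way, with no explanation attached. Aldehyde dehydrogenases, which oxidise reactive aldehydes, had 8 of 46 probe sets higher and 1 lower in CD leaves in normal P (17.4% and 2.17%, against 9.18% and 4.27% of probe sets with a symbol), and 5 higher without CD replicate 2. The lower one, ALDH11A1, had 5.65, 5.70 and 5.70 in CD leaves, against 8.09, 8.05 and 8.19 in YH leaves (difference -2.43 ± 0.22 (SE), adjusted p = 9.05e-08). Germin-like proteins, found in cell walls, had 3 of 15 higher and 0 lower. GER4 had 3.60, 6.77 and 3.89 in CD leaves, against 1.77, 1.51 and 1.30 in YH leaves (difference 3.23 ± 0.54 (SE), adjusted p = 0.000217), and GER10 was higher by 3.06 ± 0.43. Glyoxalases, which detoxify methylglyoxal, had 2 of 20 higher and 3 lower. Cytochrome P450 genes had 5 of 33 higher and 4 lower (3 higher without CD replicate 2 or YH replicate 2), and CYP71D10 had 2.92, 2.05 and 2.17 in CD leaves, against 4.54, 5.30 and 4.33 in YH leaves (difference -2.34 ± 0.24 (SE), adjusted p = 4.87e-07). Sieve element genes had 2 of 12 higher, and 0 without YH replicate 2. Nodulin and nodulation probe sets had 1 of 34 higher and 0 lower.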
